A study of Mus musculus with 16 samples.

Results

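The 43 genes described here encode proteins that copy DNA before cell division, drive or carry out mitosis, or hold the cell cycle back. They were listed by symbol and found by their GRCm38 Ensembl identifiers among the 55536 genes of the deposited count table. All 43 were found, and all 43 were among the 15316 genes with enough counts to be tested. By role they were sorted into 12 genes of origin licensing and the replicative helicase, 4 of fork synthesis, 3 of nucleotide supply, 4 regulators of the step from G1 into S phase, 3 G2/M cyclins and their kinase, 12 of mitosis, and 5 inhibitors of cyclin-dependent kinases. The first 3 classes are called the 19 replication genes below, and the G2/M and mitosis classes together the 15 mitosis genes.

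The cells were an inner medullary collecting duct line, an epithelium of the last part of the mouse kidney tubule, from which Pkd2 is lost when doxycycline (DOX) is given. Mutations of this gene, whose product polycystin-2 is a channel, cause polycystic kidney disease, and the series asks how the transcriptome depends on it. The 16 libraries form 4 groups of 4: passage 7 with DOX, passage 7 without DOX, passage 4 with DOX and passage 4 without DOX. All cells stood on permeable filters for 10 days, and DOX was given at 2 ug/mL for 6 days or left out. The genotype label is knockout with DOX and wild type without it, while the titles call all 16 libraries Pkd2KO, so DOX itself and the loss of Pkd2 cannot be told apart. It is 1 line, and nothing in the labels tells whether the 4 replicates were cultured separately. The p-values therefore measure only the spread between these samples.

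The deepest library, replicate 2 of passage 4 with DOX, held 17188295 counts, and the shallowest, replicate 4 of passage 7 without DOX, held 9937504. Pkd2, the targeted gene, had 47.6, 52.9, 60.3 and 65.9 CPM (counts scaled to library size, with TMM factors) at passage 7 with DOX, against 187, 185, 184 and 185 without DOX. At passage 4 it had 52.1, 47.8, 53.6 and 57.4 CPM with DOX, against 145, 142, 135 and 138 without DOX. Values of a group are given in the order of replicates 1 to 4 throughout. The headers of the deposited TPM table go against those of the count table: 12 of 16 TPM columns matched the counts of another group best, and 8 those of the other DOX state. The count headers were used because Pkd2 is low with DOX under them, so Pkd2 is no separate check, and no value checks the passage labels. Of 17 collecting duct markers 12 were tested, while Aqp2, Aqp3, Aqp4, Elf5 and Fxyd4 stayed under 1 CPM in all 16 libraries, so the vasopressin-regulated water channel that defines the segment was at or near 0.

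Before S phase, the origin recognition complex, Cdc6 and Cdt1 load the MCM helicase onto DNA. Cyclin-dependent kinases then fire these origins with Cdc45 and the GINS complex, and polymerases that are fed by ribonucleotide reductase and thymidylate synthase copy the strands. Genes of S phase are classic targets of E2F factors, whereas genes of G2 and mitosis are known for a CHR element (cell cycle genes homology region), often near CCAAT boxes, that is bound by the DREAM and MMB complexes. In the kidney tubule most cells rest outside the cycle, and proliferation of tubule cells is a known feature of polycystic disease.

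Both promoter types were looked for in the sequences of the listed genes. Promoter windows of RefSeq (GRCm38.p6, from 250 bases before to 50 after the start) were matched by symbol for 36 of the 43 genes. The E2F search took TTCCCGC or TTGGCGC or TTCGCGC or TTGCCGC, the CHR search TTTGAA or TTCGAA, and the third search CCAAT, each on both strands, and E2F and CCAAT matches can overlap. A gene was counted if any of its windows held a match. An E2F match lay in 12 of 16 replication genes (75%) and in 3 of 13 mitosis genes (23.1%), beside 10.9% of all 27025 genes with a window. A CHR match lay in 4 of 16 replication genes (25%) and in 10 of 13 mitosis genes (76.9%), beside 21.7% of all. CCAAT lay in 81.2% of the replication genes and 92.3% of the mitosis genes, beside 41.1% of all. Among other genes of the same processes, E2F was found in 60.5% of 38 replication and 22.8% of 57 mitosis genes, and CHR in 15.8% and 71.9%. These are matches of letters, not measured binding.

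**Figure D1:**
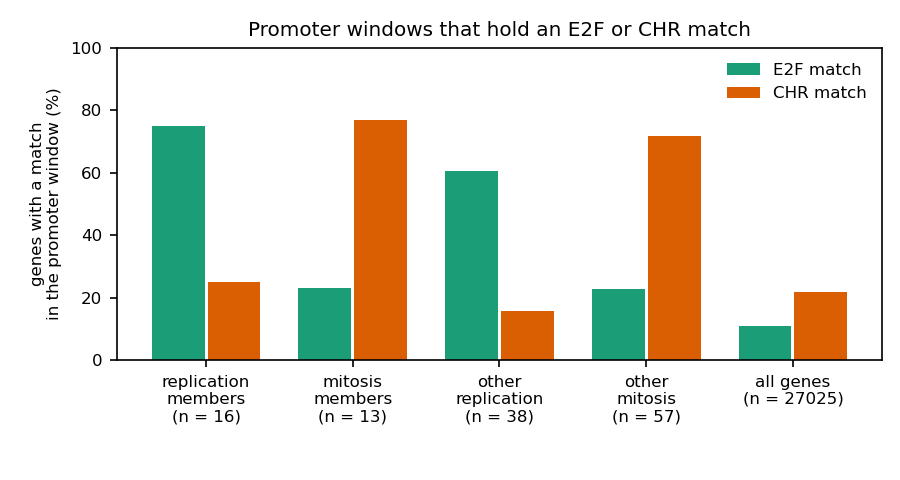
Share of genes (percent, vertical axis) with at least 1 E2F match (green) or at least 1 CHR match (orange) in a promoter window. Shown are the replication and mitosis genes, other genes of the same processes, and all 27025 genes with a window. E2F reaches 75% in the replication genes and CHR 76.9% in the mitosis genes, above 10.9% and 21.7% of all genes.

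The 150 bases before the start are printed for 3 replication and 2 mitosis genes whose transcripts are followed below, to show both arrangements. They are from RefSeq, GRCm38.p6, on the minus strand, written 5′ to 3′ with every match in capitals. Mcm2 (chr6:88898781-88898930) holds 1 CHR match and no E2F match, Rfc3 (chr5:151651209-151651358) 1 E2F match near its start, and Mcm7 (chr5:138171267-138171416) an E2F match and, further down, an inverted CCAAT box (ATTGG). Mcm7 also has a window further upstream (chr5:138171834-138172133), not printed, with 3 E2F, 1 CHR and 3 CCAAT matches. Cdk1 (chr10:69352913-69353062) holds 1 E2F match, 2 inverted CCAAT boxes and 2 CHR matches. Ccnb1 (chr13:100786487-100786636) holds an inverted E2F match that overlaps the first of 2 CCAAT boxes, and no CHR match.
Mcm2: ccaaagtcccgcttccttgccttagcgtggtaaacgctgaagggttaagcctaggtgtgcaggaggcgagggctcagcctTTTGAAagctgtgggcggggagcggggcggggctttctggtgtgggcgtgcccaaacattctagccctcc
Rfc3: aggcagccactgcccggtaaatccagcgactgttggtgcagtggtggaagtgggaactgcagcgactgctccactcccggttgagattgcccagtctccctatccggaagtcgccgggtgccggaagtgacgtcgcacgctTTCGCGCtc
Mcm7: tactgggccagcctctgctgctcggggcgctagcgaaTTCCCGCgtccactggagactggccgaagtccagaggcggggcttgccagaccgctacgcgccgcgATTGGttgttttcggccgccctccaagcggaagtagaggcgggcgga
Cdk1: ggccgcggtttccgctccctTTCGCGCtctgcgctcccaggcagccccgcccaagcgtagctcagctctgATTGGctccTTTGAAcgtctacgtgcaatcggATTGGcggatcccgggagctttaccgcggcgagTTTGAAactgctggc
Ccnb1: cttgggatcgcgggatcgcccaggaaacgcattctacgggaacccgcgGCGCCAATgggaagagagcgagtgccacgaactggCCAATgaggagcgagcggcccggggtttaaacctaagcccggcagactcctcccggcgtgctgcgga

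Cells of passage 7 carried more replication and mitosis transcripts than cells of passage 4. DOX changed a few genes in both directions, in the fit without a block no more often than among all tested genes. Its effect differed between pairs of replicates, as given below. Changes were tested by the quasi-likelihood test of edgeR, with p-values adjusted over the 15316 genes by Benjamini and Hochberg's method, and a gene was called at an adjusted p under 0.05. With DOX, 26 of the 43 were called higher at passage 7 than at passage 4 and 3 lower, beside 18.3% and 15.8% of all tested genes. Without DOX, 17 were higher and 0 lower, beside 14.3% and 11.3%, and under a block for replicate number 28 were higher and 1 lower, beside 19.6% and 17.4%. For DOX at passage 7, 3 were higher and 3 lower, beside 11.1% and 11.6%, and for DOX at passage 4, 3 were higher and 2 lower, beside 8.45% and 9.10%. Averaged over the passages, 4 were higher and 4 lower, beside 15.7% and 16.6%, and under the block 6 were higher and 10 lower, beside 20.2% and 21.7%. In these bulk libraries, fewer cells in a phase of the cycle and less RNA per cell cannot be told apart. Counted by groups that did not overlap, passage 7 lay above passage 4 for 29 of the 43 with DOX and below for 2, beside 17.5% and 14.9% of all genes, and for 15 and 0 without DOX, beside 14.6% and 12.3%. Libraries with DOX lay above those without DOX for 2 of the 43 and below for 3 at passage 7, beside 12.4% and 12.8%, and for 4 and 2 at passage 4, beside 10.3% and 11.0%. The DOX and passage comparisons share libraries, so their values for a gene are not independent.

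**Figure D2:**
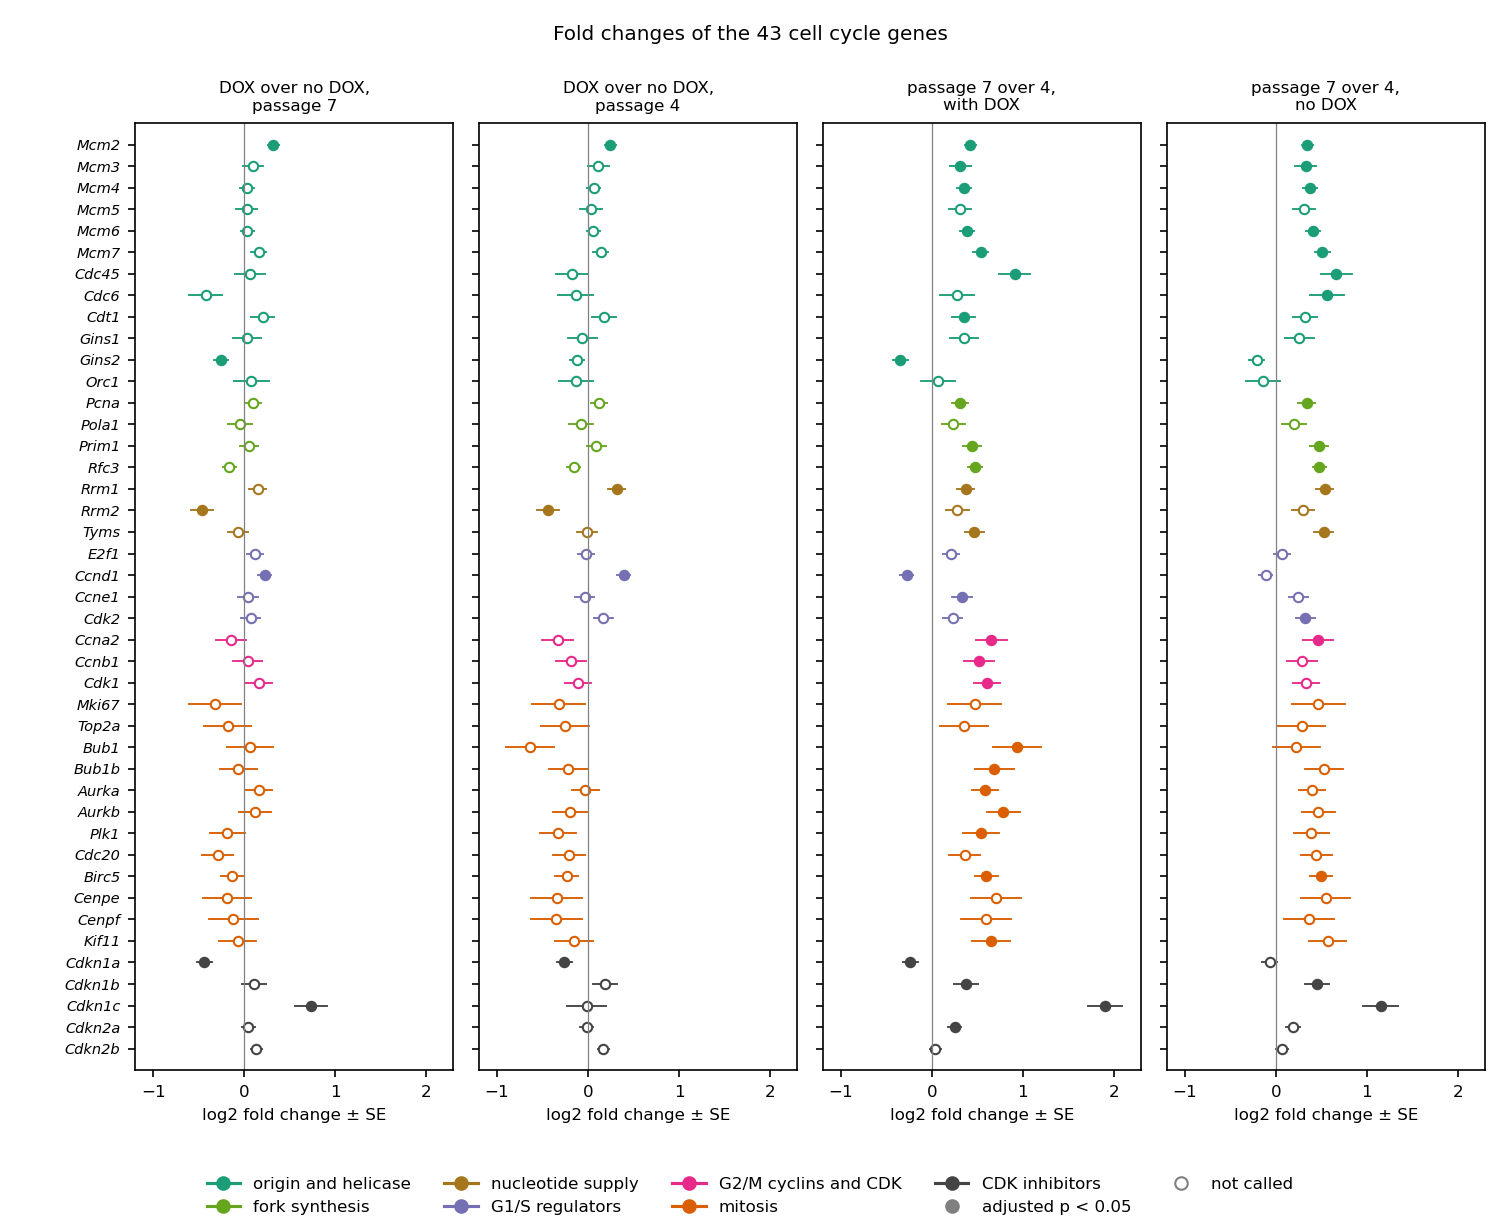
Log2 fold change (horizontal axis, bars are SE) of each of the 43 genes for DOX at passages 7 and 4 and for passage 7 over passage 4 with and without DOX. Filled points passed an adjusted p of 0.05 and open points did not. The passage panels lie to the right of 0 for 40 genes with DOX and 39 without DOX. In the DOX panels 26 genes lie to the right of 0 and 17 to the left at passage 7. At passage 4 the numbers are 14 and 29, and all 15 mitosis genes lie to the left.

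Per kilobase of exon, Ccnd1, which encodes cyclin D1, stood highest in all 4 groups, at 231 CPM per kb at passage 7 with DOX, 198 at passage 7 without DOX, 280 at passage 4 with DOX and 213 at passage 4 without DOX. Cdkn1a, the gene of the inhibitor p21, came next at 132, 178, 155 and 187 CPM per kb in the same groups. Cdkn2a followed at 84.1, 81.5, 70.8 and 71.5. The lowest of the 43 included the origin recognition subunit gene Orc1 (1.89, 1.77, 1.81 and 1.97 CPM per kb) and the kinetochore gene Cenpf (2.24, 2.42, 1.48 and 1.89). Of the other inhibitors, Cdkn2b stood at 50.9, 46.5, 49.7 and 44.3 CPM per kb, Cdkn1b at 15.2, 14.1, 11.6 and 10.3, and Cdkn1c at 7.23, 4.37, 1.94 and 1.96. The spread over the 16 libraries was narrowest for Cdkn2b, whose highest CPM was 1.29 times its lowest, and widest for Cdkn1c, at 6.31 times. Exons of 11 of the 43 overlap a gene on the other strand, and no source used here gives the strand setting of the counting, which leaves their values uncertain: Mcm7 (Cops6 and Ap4m1), Cdc45 (Ufd1), Gins2 (Gse1), Orc1, Ccnd1 (LTO1), Cdk2 (Pmel), Ccna2 (Exosc9), Plk1, Cdc20 (Elovl1), Cdkn1a and Cdkn1c. The overlapping gene had more counts than the listed one for Cdc45, Gins2, Ccna2 and Cdc20.

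Among the helicase genes, Mcm2, a subunit of the MCM ring, was called in all 4 comparisons. It had 284, 281, 276 and 266 CPM at passage 7 with DOX, against 217, 254, 206 and 210.3 without DOX. Libraries of passage 4 had 204, 196, 212 and 215 CPM with DOX, against 184, 175, 172 and 168 without DOX. Libraries with and without DOX did not overlap within either passage. Mcm2 rose with DOX at passage 7 (log2 fold change 0.32, SE 0.06, edgeR adjusted p = 0.00066) and at passage 4 (log2 fold change 0.24, SE 0.06, edgeR adjusted p = 0.0076). It was also higher at passage 7 than at passage 4 with DOX (log2 fold change 0.42, SE 0.06, edgeR adjusted p = 3.0e-05) and without DOX (log2 fold change 0.35, SE 0.06, edgeR adjusted p = 0.00036). No other MCM subunit was called with DOX in these comparisons. Averaged over the passages, the log2 fold changes of Mcm3, Mcm4, Mcm5, Mcm6 and Mcm7 were 0.11, 0.05, 0.03, 0.05 and 0.15, and with replicate number as a block that of Mcm7 was called (0.14, edgeR adjusted p = 0.0095).

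Mcm7 and Mcm6, subunits of the same ring, moved with passage. With DOX, Mcm7 had 252, 242, 285 and 280.5 CPM at passage 7, against 176, 151, 211 and 193 at passage 4. Without DOX it had 229.6, 249, 239 and 231 CPM at passage 7, against 169, 152, 179.8 and 164 at passage 4. Every library of passage 7 lay above every library of passage 4, and Mcm7 rose with DOX present (log2 fold change 0.54, SE 0.08, edgeR adjusted p = 7.5e-05) and absent (log2 fold change 0.51, SE 0.08, edgeR adjusted p = 0.00020). With DOX, Mcm6 had 221, 210.4, 206 and 212 CPM at passage 7, against 165, 142, 173 and 169 at passage 4. Libraries without DOX had 209, 241, 189.9 and 188 CPM at passage 7, against 160.1, 155, 158 and 149.9 at passage 4. Mcm6 did not overlap between passages either, and it rose both with DOX (log2 fold change 0.39, SE 0.07, edgeR adjusted p = 0.00048) and without it (log2 fold change 0.41, SE 0.07, edgeR adjusted p = 0.00047).

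The other genes of this class went the same way at passage 7, with exceptions. Mcm4 rose by 0.35 with DOX and 0.38 without DOX on the log2 scale, and Cdc45, the helicase cofactor, by 0.91 and 0.67. Mcm3 rose by 0.31 and 0.33, but both calls were lost under the replicate block (adjusted p = 0.055 and 0.056) and without any 1 of 9 and of 10 libraries. Cdt1 was called with DOX alone (0.35, edgeR adjusted p = 0.044), and that call ended without any 1 of 9 libraries. Without DOX it was called with the block (0.34, edgeR adjusted p = 0.048). Cdc6, which loads the helicase, was called without DOX alone (0.56, edgeR adjusted p = 0.032), and the call ended without replicate 1 or 2 of passage 7 or replicate 2, 3 or 4 of passage 4, all without DOX. Mcm5 (0.31 with DOX and 0.31 without), Gins1 (0.35 and 0.25) and Orc1 (0.07 and -0.14) were not called. In all, 7 of the 12 were called higher with DOX and 7 without DOX.

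Gins2, a subunit of the GINS complex, was the one replication gene called lower at passage 7, and it also fell with DOX. It had 35, 35.2, 39.1 and 38.2 CPM at passage 7 with DOX, against 47.5, 40.1, 42.5 and 45.9 without DOX. For passage 4 the values were 42.4, 49.3, 47 and 48.7 CPM with DOX, against 44, 49.5, 54.3 and 55.6 without DOX. At passage 7 the groups did not overlap, and Gins2 fell (log2 fold change -0.25, SE 0.08, edgeR adjusted p = 0.029), a call that ended without replicate 1 or 2 of passage 7 with DOX or replicate 1 or 4 of passage 7 without DOX. With DOX it was lower at passage 7 than at passage 4 (log2 fold change -0.35, SE 0.08, edgeR adjusted p = 0.0027), and without DOX it was lower with the block (-0.21, edgeR adjusted p = 0.023).

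Of the fork genes, Rfc3, a subunit of the clamp loader, rose with passage and fell slightly with DOX. With DOX, it had 44, 40.9, 45.4 and 44.4 CPM at passage 7, against 32.9, 28.6, 34.3 and 30.2 at passage 4. In the absence of DOX the values were 45.4, 50.8, 46.9 and 52.6 CPM at passage 7, against 35.8, 32.7, 37.6 and 34.1 at passage 4. No library of passage 4 reached one of passage 7, and Rfc3 rose with DOX (log2 fold change 0.47, SE 0.07, edgeR adjusted p = 6.6e-05) and without it (log2 fold change 0.48, SE 0.07, edgeR adjusted p = 1.0e-04). Averaged over the passages Rfc3 fell with DOX (log2 fold change -0.16, SE 0.05, edgeR adjusted p = 0.022), and this call ended without replicate 3 of passage 4 without DOX.

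Prim1, the catalytic primase subunit, and Pcna, the sliding clamp, also rose with passage. With DOX, Prim1 had 20.7, 22.6, 20.9 and 23 CPM at passage 7, against 15.9, 13.9, 16.8 and 18 at passage 4. Cells without DOX held 23.7, 22.1, 18.1 and 20.1 CPM at passage 7, against 15.8, 13.5, 15.3 and 15.9 at passage 4. The passages did not overlap in either DOX state (with DOX, log2 fold change 0.44, SE 0.10, edgeR adjusted p = 0.0020; without DOX, log2 fold change 0.48, SE 0.10, edgeR adjusted p = 0.0018). With DOX, Pcna had 154, 143, 156 and 146 CPM at passage 7, against 120.0, 99.2, 137 and 128 at passage 4. For the libraries without DOX they were 138, 167, 128 and 127 CPM at passage 7, against 115, 110.1, 115 and 104 at passage 4. Pcna was separated in both as well (with DOX, log2 fold change 0.31, SE 0.09, edgeR adjusted p = 0.013; without DOX, log2 fold change 0.34, SE 0.09, edgeR adjusted p = 0.010). Pola1, the catalytic subunit of polymerase alpha, was not called for passage (0.24 with DOX and 0.20 without) or for DOX, except for passage with DOX under the block (0.24, edgeR adjusted p = 0.036).

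The subunits of ribonucleotide reductase, which makes deoxynucleotides, moved apart with DOX. Rrm2, the small subunit that is normally made in S phase, had 53.3, 53.3, 50.8 and 54.1 CPM at passage 7 with DOX, against 77.7, 93.4, 65.1 and 54.5 without DOX. At passage 4 it had 47.8, 38.7, 43.3 and 44.5 CPM with DOX, against 68.3, 56.6, 55 and 56.6 without DOX. With the passages pooled, the highest of the 8 values with DOX was under the lowest of the 8 without it, as for 2.66% of all tested genes (the opposite held for 2.57%), and no other of the 43 was split in either direction in this pooled comparison. Rrm2 fell at passage 7 (log2 fold change -0.46, SE 0.12, edgeR adjusted p = 0.010) and at passage 4 (log2 fold change -0.44, SE 0.12, edgeR adjusted p = 0.018). The call at passage 4 ended without replicate 1 of passage 4 without DOX or replicate 2 of passage 4 with DOX. At passage 7 the value was -0.20 (edgeR adjusted p = 0.052) in replicates 3 and 4 alone and -0.68 (edgeR adjusted p = 0.0021) in replicates 1 and 2 alone.

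Rrm1, the large subunit, had 151, 153, 139 and 143 CPM at passage 7 with DOX, against 141, 159, 114 and 115 without DOX. Libraries of passage 4 had 121, 115, 113 and 106 CPM with DOX, against 104, 94.8, 86.9 and 80.0 without DOX. The groups overlapped at passage 7 and not at passage 4, where Rrm1 rose (log2 fold change 0.31, SE 0.10, edgeR adjusted p = 0.028). That call ended without replicate 1, 2 or 3 of passage 4 with DOX or replicate 3 or 4 of passage 4 without DOX, and the value at passage 7 was 0.15 (SE 0.09), with an edgeR adjusted p of 0.046 under the block. Rrm1 was also higher at passage 7 than at passage 4 with DOX (log2 fold change 0.37, SE 0.09, edgeR adjusted p = 0.0056) and without it (log2 fold change 0.54, SE 0.10, edgeR adjusted p = 0.00049).

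Tyms, which makes thymidylate, had with DOX 36.7, 37.3, 38.7 and 34.9 CPM at passage 7, against 29.1, 22, 27.1 and 29 at passage 4. Without DOX it had 39, 48.4, 33.2 and 33.9 CPM at passage 7, against 27.9, 25.6, 26.7 and 27.4 at passage 4. The passages did not overlap, and Tyms rose by 0.47 with DOX (SE 0.11, edgeR adjusted p = 0.0024) and 0.53 without DOX (SE 0.11, edgeR adjusted p = 0.0015). Its log2 fold change with DOX was -0.04 averaged over passages.

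**Figure D3:**
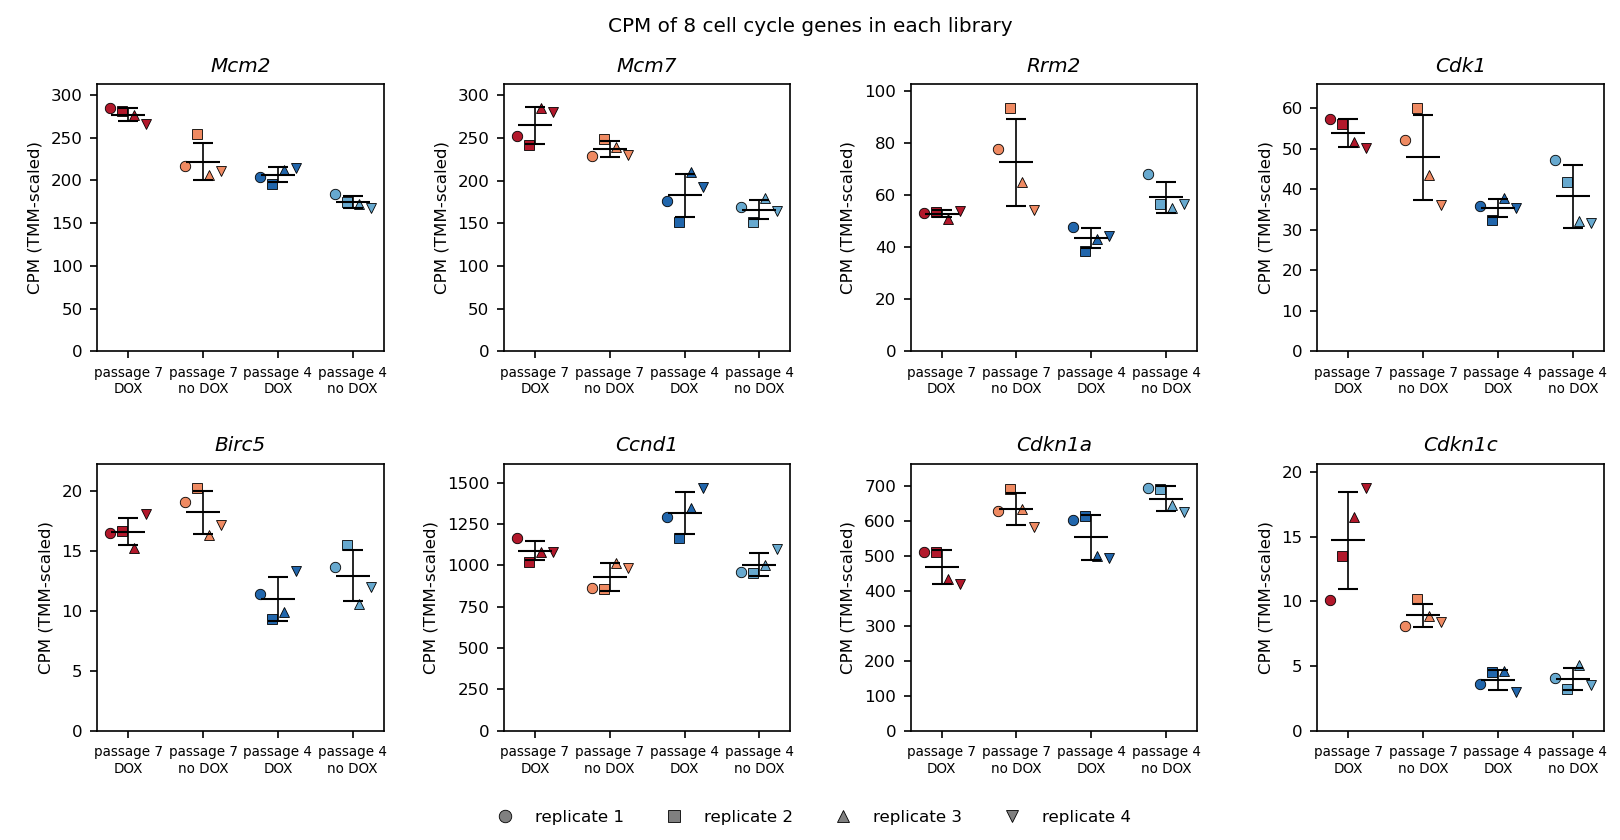
TMM-scaled CPM (vertical axis, from 0) of 8 of the genes in each library, by group, with the mean and SD of 4 libraries; the marker shape gives the replicate number. The Mcm2 and Ccnd1 points with DOX lie above those without DOX within each passage and the Rrm2 and Cdkn1a points below, while Cdkn1c spans 2.98 to 18.8 CPM.

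Of the G1/S regulators, Ccnd1, whose product cyclin D1 activates CDK4 and CDK6, rose with DOX. It had 1162, 1023, 1079.9 and 1083 CPM at passage 7 with DOX, against 862, 858, 1017 and 984 without DOX. For passage 4 the values were 1291, 1164, 1349 and 1469 CPM with DOX, against 959.8, 954, 1004 and 1100.5 without DOX. The groups did not overlap within a passage. The rise was called at passage 7 (log2 fold change 0.23, SE 0.07, edgeR adjusted p = 0.034) and at passage 4 (log2 fold change 0.39, SE 0.07, edgeR adjusted p = 0.00090). At passage 7 it was lost without replicate 1, 3 or 4 with DOX or replicate 1 or 2 without DOX, and within replicates 3 and 4 alone it was 0.11 (edgeR adjusted p = 0.12). With DOX, Ccnd1 was lower at passage 7 than at passage 4 (log2 fold change -0.28, SE 0.07, edgeR adjusted p = 0.0071).

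Ccne1 and Cdk2 encode cyclin E1 and its kinase, which start S phase. With DOX, Ccne1 had 21.5, 20.2, 22.5 and 20.4 CPM at passage 7, against 15.8, 14.1, 18.7 and 19 at passage 4. Libraries without DOX had 18.7, 24.4, 19.8 and 19.2 CPM at passage 7, against 19, 15.9, 17.8 and 16.5 at passage 4. It was separated and called with DOX alone (log2 fold change 0.33, SE 0.11, edgeR adjusted p = 0.022), and the call ended without replicate 1 or 2 of passage 4 or replicate 3 of passage 7, all with DOX. With DOX, Cdk2 had 41.9, 48.4, 44.5 and 48.4 CPM at passage 7, against 39.1, 32.7, 40.0 and 45.1 at passage 4. In the absence of DOX the values were 42, 49.1, 39.7 and 43.7 CPM at passage 7, against 33.3, 28.8, 39 and 38.3 at passage 4. Cdk2 was called without DOX alone (log2 fold change 0.32, SE 0.10, edgeR adjusted p = 0.029), and the call ended without replicate 2 or 4 of passage 7 or replicate 1 or 2 of passage 4. With DOX it was called under the block (0.23, edgeR adjusted p = 0.048). The difference of these passage responses between DOX states was not called for any of the 43. E2f1, the gene of a factor that switches on S phase genes, ranged from 28.3 to 38.6 CPM over the 16 libraries and was called in none of the comparisons, except for passage with DOX under the block (0.21, edgeR adjusted p = 0.038).

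The mitosis genes had higher values at passage 7 for all 15 members in both DOX states, with a median log2 fold change of 0.60 with DOX and 0.45 without DOX. The median of all tested genes was -0.01 with DOX and -0.01 without DOX. With DOX, 10 of the 15 were called higher and 0 lower, beside 18.3% and 15.8% of all tested genes. Without DOX 2 were higher and 0 lower, beside 14.3% and 11.3%, so that this count was near the background. The block moved the numbers called higher to 14 with DOX and 12 without DOX, beside 23.2% and 19.6% of all tested genes. DESeq2 gave 11 with DOX and 7 without, and a fit with no low-count filter 6 and 1. Leaving out replicate 4 of passage 4 with DOX gave 6 with DOX. Leaving out 1 library gave 1 to 9 without DOX, with 9, 8 and 6 in the absence of replicate 1 of passage 4 and replicates 4 and 3 of passage 7, all without DOX, and 1 in the absence of any of 11 libraries. For DESeq2, the fit with no filter and the fits without 1 library, the share of all tested genes was not counted. Among replication genes, 12 of 19 were called higher in each DOX state, with medians of 0.35 and 0.35, and the block left these counts at 12 and 12.

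Cdk1, Ccna2 and Ccnb1 encode the kinase that drives entry into mitosis and its cyclins A2 and B1. With DOX, Cdk1 had 57.4, 56.2, 51.8 and 50.2 CPM at passage 7, against 36, 32.4, 37.9 and 35.3 at passage 4. Cells without DOX held 52.2, 60.0, 43.4 and 36 CPM at passage 7, against 47.4, 41.8, 32.2 and 31.6 at passage 4. Cdk1 was separated and rose with DOX (log2 fold change 0.61, SE 0.14, edgeR adjusted p = 0.0031), whereas the libraries overlapped without DOX (0.33, SE 0.14, edgeR adjusted p = 0.096, and 0.025 with the block). With DOX, Ccna2 had 48.2, 42.7, 34.9 and 42.2 CPM at passage 7, against 29.3, 25.3, 24.5 and 27.3 at passage 4. For the libraries without DOX they were 50.5, 63.3, 35.2 and 35.6 CPM at passage 7, against 39, 36.4, 29.8 and 29.1 at passage 4. Ccna2 rose with DOX (log2 fold change 0.65, SE 0.17, edgeR adjusted p = 0.0064) and without it (log2 fold change 0.46, SE 0.16, edgeR adjusted p = 0.049), and the call without DOX ended without any 1 of 11 libraries. With DOX, Ccnb1 had 30.0, 30.5, 25.5 and 30.9 CPM at passage 7, against 22.9, 20.6, 21.2 and 17 at passage 4. Without DOX it had 31.9, 32.7, 24.5 and 24.4 CPM at passage 7, against 32.8, 23.7, 18.2 and 18.4 at passage 4. Ccnb1 was called with DOX (log2 fold change 0.52, SE 0.16, edgeR adjusted p = 0.021), a call that ended without replicate 4 of passage 4 or of passage 7, both with DOX, and it was not called without DOX (0.29, 0.040 as the adjusted p with the block).

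Birc5, Aurkb and Aurka, which encode survivin, its partner Aurora B and the spindle pole kinase Aurora A, had the smallest adjusted p of the mitosis class. With DOX, Birc5 had 16.5, 16.6, 15.2 and 18 CPM at passage 7, against 11.4, 9.29, 9.89 and 13.4 at passage 4. Libraries without DOX had 19.1, 20.2, 16.3 and 17.2 CPM at passage 7, against 13.7, 15.4, 10.6 and 12 at passage 4. Birc5 was separated in both DOX states (with DOX, log2 fold change 0.60, SE 0.13, edgeR adjusted p = 0.0013; without DOX, log2 fold change 0.50, SE 0.13, edgeR adjusted p = 0.0072). With DOX, Aurkb had 23.5, 24.5, 20.5 and 18 CPM at passage 7, against 12.2, 10.5, 15.2 and 12.5 at passage 4. In the absence of DOX the values were 21.1, 28.2, 16.2 and 13.8 CPM at passage 7, against 17.4, 14.3, 13 and 13 at passage 4. Aurkb rose with DOX (log2 fold change 0.78, SE 0.18, edgeR adjusted p = 0.0031) and was not called without it (0.47, 0.040 as the adjusted p with the block). With DOX, Aurka had 29.2, 26.4, 23.6 and 25 CPM at passage 7, against 17.4, 17.1, 18 and 16.8 at passage 4. Cells without DOX held 23.1, 31.2, 21.3 and 16.8 CPM at passage 7, against 20.6, 18.7, 16.8 and 14.5 at passage 4. Aurka rose with DOX (log2 fold change 0.59, SE 0.14, edgeR adjusted p = 0.0037) and just missed the threshold without it (0.39, edgeR adjusted p = 0.050, and 0.0087 with the block).

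The other 4 mitosis genes called higher at passage 7 with DOX were the spindle checkpoint kinase gene Bub1 (0.93 on the log2 scale) and its relative Bub1b (0.69), the polo-like kinase gene Plk1 (0.54) and the spindle motor gene Kif11 (0.65). The calls of Bub1b (3 libraries), Kif11 (4) and Plk1 (9) ended when 1 of these libraries was left out. Cenpe (0.71), Cenpf (0.59), Cdc20 (0.36), Top2a (0.35) and Mki67 (0.48) were not called with DOX. With the block, Cenpe, Cenpf, Cdc20 and Top2a were called too. Mki67, the widely used marker of cycling cells, was not called with the block (0.44, edgeR adjusted p = 0.065) and just passed with a term for the replicate pair in its place (0.44, edgeR adjusted p = 0.047). It was called in replicates 1 and 2 alone (0.72, edgeR adjusted p = 0.0034) and not in replicates 3 and 4 alone (0.17, edgeR adjusted p = 0.11).

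In the comparison of DOX with no DOX, 0 of the 15 mitosis genes were called in either direction at either passage or averaged. Values were lower with DOX for 10 of the 15 at passage 7 (median log2 fold change -0.12) and for 15 at passage 4 (median -0.24). At an unadjusted p under 0.05 in edgeR, 0 of the 15 passed at passage 7 and 1 at passage 4, beside 5115 and 4524 of the 15316 tested genes. DESeq2 called 0 of the 15 at both. The median of the 19 replication genes with DOX was 0.04 at passage 7 and 0.03 at passage 4. With replicate number as a block, Bub1 (-0.64, edgeR adjusted p = 0.0033), Cenpe (-0.35, adjusted p = 0.0089), Cenpf (-0.33, adjusted p = 0.040) and Ccna2 (-0.34, adjusted p = 0.041) were called lower at passage 4. This moved the number of the 43 called lower at passage 4 to 6, beside 14.0% of all genes in that fit. Averaged over the passages the block gave 6 mitosis genes lower, adding Plk1 and Cdc20 to these 4, and 10 of the 43 lower in all, beside 21.7%. At passage 7 the block called 0 of the 15, and the replicate pair term called Cdc20 lower (-0.28, edgeR adjusted p = 0.035).

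Part of the spread lay between replicates 3 and 4 and replicates 1 and 2, a split seen in the data and not named by the labels. Summed over the 15 mitosis genes, passage 7 with DOX had 637, 664, 473 and 512 CPM, against 708, 846, 448 and 453 without DOX. At passage 4 the sums were 435, 389, 371 and 363 CPM with DOX, against 602, 512, 380.2 and 374 without DOX. Replicates 3 and 4 were lower than replicates 1 and 2 in every group. Without DOX, the mean of replicates 3 and 4 was 451 CPM at passage 7 and 377 at passage 4, and that of replicates 1 and 2 was 777 and 557. The sums of the 19 replication genes at passage 7 were 1877, 1832, 1813 and 1809 CPM with DOX, against 1766, 2025, 1575 and 1574 without DOX. At passage 4 they were 1422, 1266, 1525 and 1463 CPM with DOX, against 1400.0, 1305, 1357 and 1286 without DOX.

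Mitosis sums were 0.339, 0.362, 0.261 and 0.283 of the replication sums at passage 7 with DOX, against 0.401, 0.418, 0.285 and 0.288 without DOX. At passage 4 the ratios were 0.306, 0.308, 0.243 and 0.248 with DOX, against 0.430, 0.392, 0.280 and 0.291 without DOX. Within each pair of replicates the ratio was lower with DOX than without it at both passages, and within each group it was lower in replicates 3 and 4. Gene by gene, replicates 3 and 4 minus replicates 1 and 2, averaged over the 4 groups, gave values below 0 for 15 of 15 mitosis genes (median log2 difference -0.38) and for 13 of 19 replication genes (median -0.05). Over all tested genes the median was -0.0002 and 50.03% were below 0. Cenpe (-0.66), Cenpf (-0.64), Mki67 (-0.62), Top2a (-0.61), Bub1 (-0.57) and Bub1b (-0.49) did not overlap between the pairs in any of the 4 groups. The same held for the replication gene Rrm1 (-0.21), which made 7 of the 43. The share of all tested genes split in this way was not counted, so these 7 cannot be read as a trait of the listed genes. What sets the pairs apart was not tested.

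**Figure D4:**
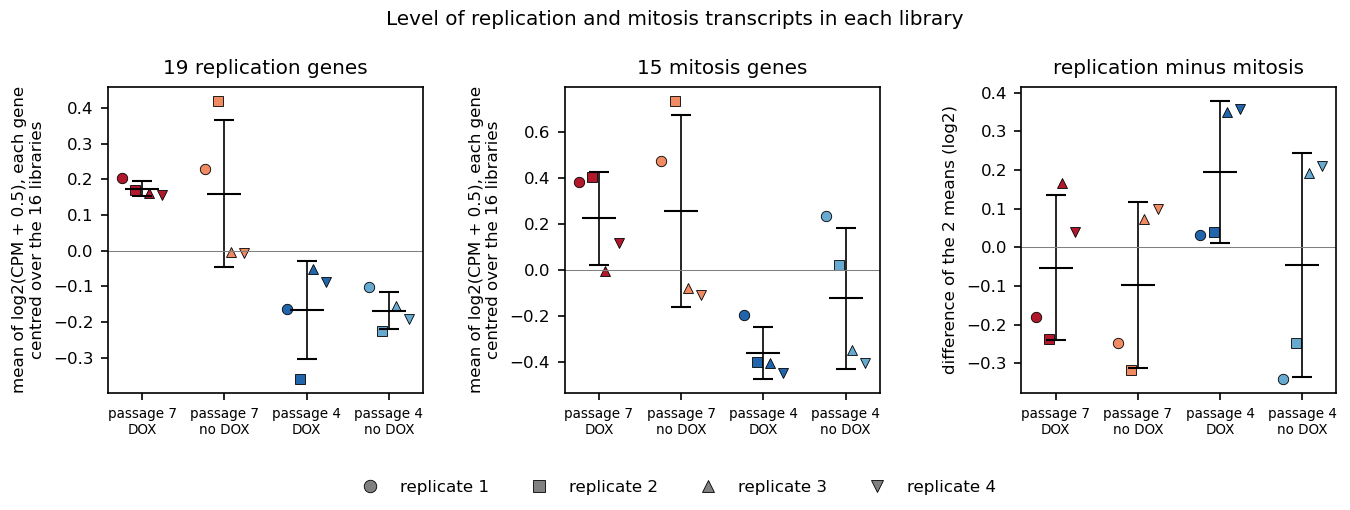
Mean over the 19 replication genes (left) and the 15 mitosis genes (middle) of log2(CPM + 0.5), each gene centred over the 16 libraries, and their difference (right), in each library; bars are the mean and SD of 4 libraries, and the marker shape gives the replicate. Replicates 3 and 4 lie below replicates 1 and 2 for mitosis in all 4 groups and above them for the difference.

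Fitted within a pair, the response to DOX took other values. At passage 7, replicates 3 and 4 alone gave 17 of the 43 higher and 1 lower, beside 14.3% and 15.7% of the genes tested in that fit. Replicates 1 and 2 alone gave 2 higher and 8 lower, beside 9.55% and 10.5%. At passage 4, replicates 3 and 4 alone gave 8 higher, of which 7 were replication genes, and 3 lower, beside 11.4% and 11.9%. Replicates 1 and 2 alone gave 2 higher and 12 lower, of which 10 were mitosis genes, beside 11.0% and 10.4%. The 17 included 10 replication genes, among them Mcm2, Mcm3, Mcm5, Mcm6, Mcm7, Cdc45 and Pcna, and 4 mitosis genes, Cdk1, Bub1, Aurka and Aurkb. Each of these fits rests on 2 libraries per group. Besides Rrm2, Ccnd1 and Cdkn1c at passage 7, the DOX calls lost in one pair were Mcm2 at passage 4 in replicates 1 and 2 (0.16, edgeR adjusted p = 0.099) and Gins2 at passage 7 in replicates 3 and 4 (-0.19, edgeR adjusted p = 0.065). Averaged over passages, Gins2 (-0.17, edgeR adjusted p = 0.064) and Rfc3 (-0.17, edgeR adjusted p = 0.060) were lost in replicates 1 and 2. For passage, replicates 3 and 4 lost Mcm3 and Ccne1 with DOX (0.11 and 0.19) and Mcm3, Cdc6, Prim1 and Cdk2 without DOX (0.13, 0.23, 0.28 and 0.10), and replicates 1 and 2 lost Ccnd1 with DOX (-0.16).

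The difference itself was tested with all 16 libraries in 1 fit, a test chosen after the pairs had been seen. Averaged over the passages, the DOX response in replicates 3 and 4 minus that in replicates 1 and 2 was above 0 for 38 of the 43 and for 15 of 15 mitosis genes (median log2 difference 0.36). It was called higher for Cdk1 (0.46, SE 0.09, edgeR adjusted p = 0.0061) and Mcm3 (0.31, SE 0.08, edgeR adjusted p = 0.034) and lower for 0 of the 43, beside 0.783% and 0.770% of all genes. At an unadjusted p under 0.05, 31 of the 43 and 2091 of the 15316 passed. At passage 4 Cdk1 alone was called higher (0.58, edgeR adjusted p = 0.019) and 0 of the 43 lower, beside 0.614% and 0.829% of all genes. At passage 7 the test called 0 of the 43, beside 0.00653% higher and 0% lower. There, 23 of the 43 and 1173 of the 15316 passed an unadjusted p of 0.05. For most of the 43 the adjusted test therefore does not separate the pairs.

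**Figure D5:**
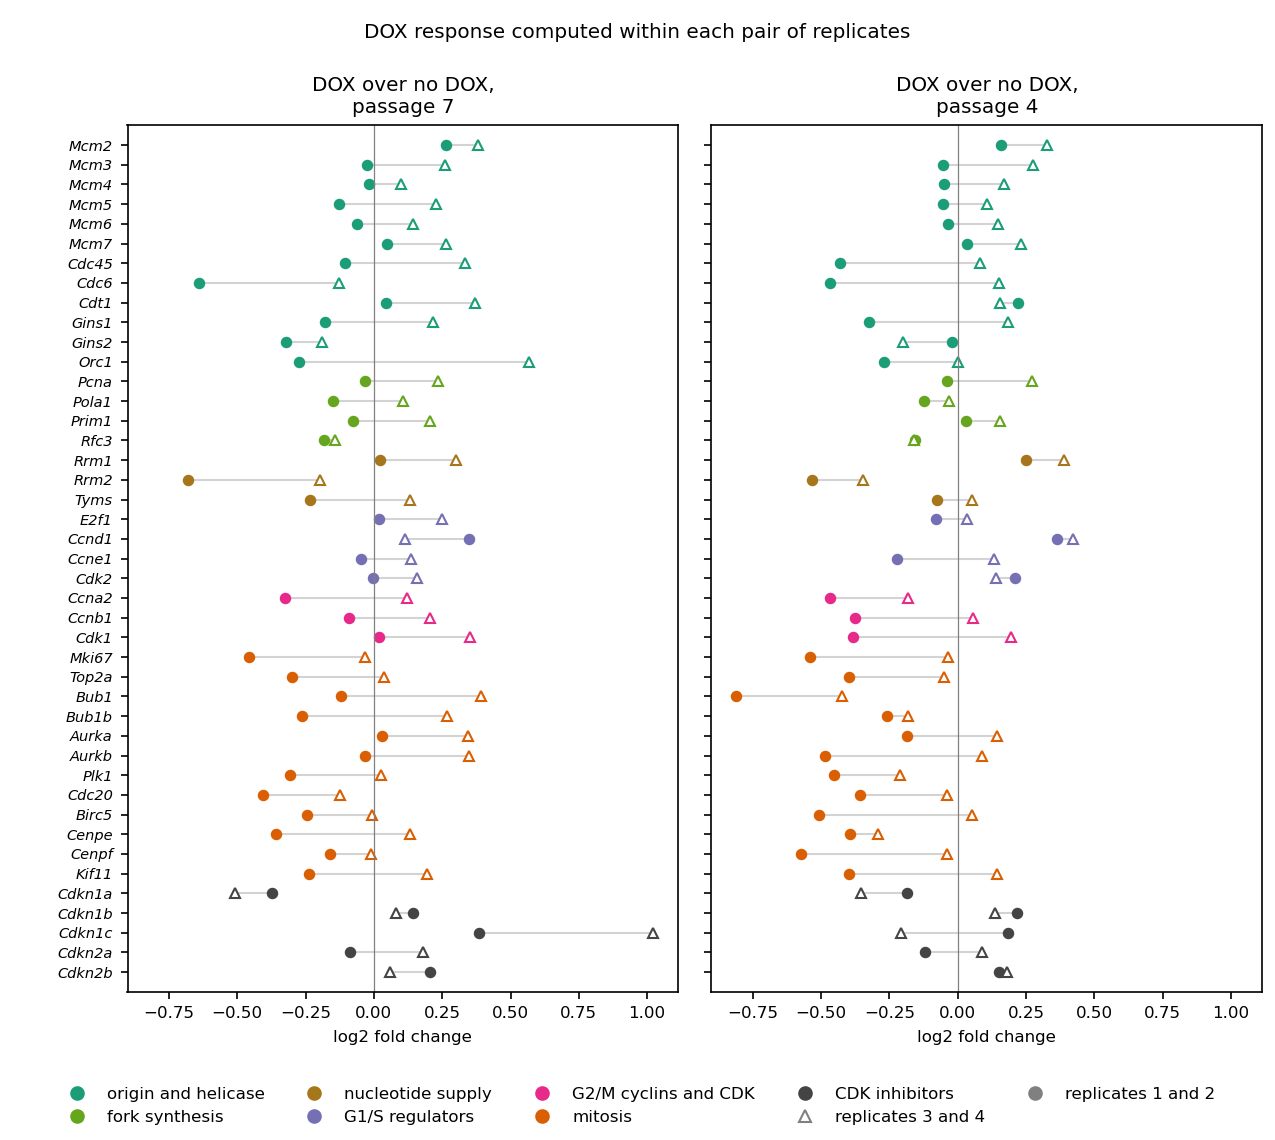
Log2 fold change with DOX (horizontal axis) of each of the 43 genes at passage 7 (left) and passage 4 (right), fitted in replicates 3 and 4 alone (open triangles) and in replicates 1 and 2 alone (filled circles). All 15 mitosis genes (pink and orange) have the triangle to the right of the circle in both panels.

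The inhibitors did not move as a group. Cdkn1a, whose product p21 blocks CDK2 and binds PCNA, fell with DOX. It had 509.8, 509, 434 and 419.9 CPM at passage 7 with DOX, against 628, 691, 633 and 580.4 without DOX. At passage 4 it had 602, 613, 499 and 494 CPM with DOX, against 693, 689.9, 644 and 623 without DOX. The groups did not overlap within a passage, and Cdkn1a fell at passage 7 (log2 fold change -0.44, SE 0.08, edgeR adjusted p = 0.00076) and at passage 4 (log2 fold change -0.26, SE 0.08, edgeR adjusted p = 0.032). The call at passage 4 ended without replicate 3 or 4 of passage 4 with DOX or replicate 1 or 2 of passage 4 without DOX. With DOX it was also lower at passage 7 than at passage 4, with overlap (log2 fold change -0.24, SE 0.08, edgeR adjusted p = 0.033), a call that ended without replicate 3 or 4 of passage 7 or replicate 1 or 2 of passage 4.

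Cdkn1c, the gene of p57, showed the widest change of the 43. It had 10.1, 13.5, 16.5 and 18.8 CPM at passage 7 with DOX, against 8.13, 10.2, 8.91 and 8.43 without DOX. Libraries of passage 4 had 3.64, 4.53, 4.64 and 2.98 CPM with DOX, against 4.06, 3.25, 5.13 and 3.52 without DOX. All 8 libraries of passage 7 lay above all 8 of passage 4, and Cdkn1c rose with DOX (log2 fold change 1.90, SE 0.19, edgeR adjusted p = 6.0e-07) and without it (log2 fold change 1.15, SE 0.20, edgeR adjusted p = 0.00031). With DOX at passage 7 it rose too (log2 fold change 0.73, SE 0.17, edgeR adjusted p = 0.0047), but replicate 1 with DOX lay below replicate 2 without DOX. The value was 1.02 in replicates 3 and 4 alone and 0.38 (edgeR adjusted p = 0.15) in replicates 1 and 2 alone. At passage 4 the log2 fold change with DOX was -0.01, and the difference of the DOX responses was not called (0.75, SE 0.27, edgeR adjusted p = 0.25). Averaged over the passages it was 0.36 (edgeR adjusted p = 0.052, and 0.024 with the block). Cdkn1c is an imprinted gene, expressed from the maternal copy.

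Cdkn1b, the gene of p27, rose with passage. With DOX, it had 69.5, 76.5, 62.1 and 68.5 CPM at passage 7, against 55.2, 67.6, 41.1 and 48.2 at passage 4. For the libraries without DOX they were 69.9, 62.6, 63.6 and 59.8 CPM at passage 7, against 53.2, 53.3, 43 and 38.1 at passage 4. It rose with DOX, where the passages overlapped (log2 fold change 0.38, SE 0.13, edgeR adjusted p = 0.033), and without DOX, where they did not (log2 fold change 0.45, SE 0.13, edgeR adjusted p = 0.019). The call with DOX ended without replicate 1, 2 or 4 of passage 7 or replicate 1, 3 or 4 of passage 4, and that without DOX in the absence of replicate 1 of passage 7 or replicate 3 or 4 of passage 4. Its log2 fold change with DOX was 0.11 at passage 7 and 0.18 at passage 4, and neither was called.

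Cdkn2a and Cdkn2b sit side by side on chromosome 4 and are known to rise in cultured cells as they age. Counts per gene cannot separate the p16 and p19 products of Cdkn2a. With DOX, Cdkn2a had 97.6, 92.8, 103 and 101 CPM at passage 7, against 79.6, 80.3, 91.9 and 80.2 at passage 4. Without DOX it had 94.4, 108, 90.6 and 89.3 CPM at passage 7, against 86.8, 87.2, 87.3 and 73.8 at passage 4. Cdkn2a was called higher at passage 7 with DOX (log2 fold change 0.25, SE 0.07, edgeR adjusted p = 0.012) and not without DOX (0.19, edgeR adjusted p = 0.061, and 0.022 with the block). Cdkn2b, the gene of p15, had 73.6, 67.7, 70.2 and 71.9 CPM at passage 7 with DOX, against 57.1, 65.3, 71.2 and 64.7 without DOX. For passage 4 the values were 69.6, 68.2, 71.7 and 66.7 CPM with DOX, against 60.9, 63.4, 63 and 58.8 without DOX. The groups were separated at passage 4 and overlapped at passage 7, and the rise averaged over the passages was small (log2 fold change 0.15, SE 0.04, edgeR adjusted p = 0.012). At passage 4 it was called under the block (0.17, edgeR adjusted p = 0.032).

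No member passed the test of a difference in DOX response between passages (0 of 43 higher and 0 lower, beside 0.516% and 0.679%), by edgeR or DESeq2. At an unadjusted p under 0.05 in edgeR, 1 of 43 and 1768 of the 15316 tested genes passed. The value nearest to the threshold was that of Cdkn1c, above. Bub1 had a difference of 0.70 (SE 0.37, edgeR adjusted p = 0.50), which was called with replicate number as a block (0.75, edgeR adjusted p = 0.039).

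Other genes of the same pathways were taken from lists outside the 43, and all tested genes were called higher and lower at passage 7 in 18.3% and 15.8% of cases with DOX and in 14.3% and 11.3% without DOX. Of 48 other replication genes, 27 were called higher and 0 lower at passage 7 than at passage 4 with DOX, and 20 higher and 0 lower without DOX. Of 67 other mitosis genes, 40 were higher and 0 lower with DOX, and 21 higher and 0 lower without DOX. Without DOX, the smallest adjusted p among them were those of Dbf4, which activates the origin kinase (0.53 on the log2 scale), the chromatin assembly gene Chaf1b (0.64), the clamp loader gene Rfc5 (0.60) and the thymidine kinase gene Tk1 (0.75), and of the mitosis genes Tacc3 (0.63), Cenpa (0.71), Cdca3 (0.75) and Racgap1 (0.66). Of 27 other regulators, listed for the G1/S step but also holding Wee1, whose kinase restrains CDK1, 6 rose and 2 fell without DOX. Wee1 rose by 0.44 and E2f8, an E2F repressor, by 0.48, while Tfdp2 fell by 0.30 and Lin37 by 0.36. Of 7 other inhibitors Btg1 alone rose (0.30). Of 24 p53 targets, Sulf2 (0.26) and Perp (0.22) rose and Trp53, the p53 gene itself, fell by 0.28, so the inhibitor and p53 lists held calls at about the share of all genes or below it.

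With DOX, averaged over the passages, 8 of the 48 other replication genes rose and 2 fell, beside 15.7% and 16.6% of all genes. The helicase gene Recql4 rose most (log2 fold change 1.26, SE 0.18, edgeR adjusted p = 3.6e-05), with a mean of 14.9 CPM with DOX, against 5.74 CPM without DOX. Timeless, of the fork protection complex, rose by 0.42, Orc3 by 0.21 and Dbf4 by 0.18, while the checkpoint mediator gene Clspn fell by 0.32. Of the 67 other mitosis genes Cdc25b, a CDK1-activating phosphatase, rose (0.40), and Kif15 (-0.46), Kif4 (-0.38), Racgap1 (-0.26) and Cdca5 (-0.37) fell. Among the 27 other regulators 3 rose and 6 fell. At the head of those that fell were the atypical E2F repressors E2f8 (log2 fold change -0.61, SE 0.08, edgeR adjusted p = 5.7e-06) and E2f7 (log2 fold change -0.57, SE 0.11, edgeR adjusted p = 0.00072). Of the 7 other inhibitors Btg1 rose (0.24), and Cdkn2d (-0.49), Cdkn3 (-0.52) and Cdkn2c (-0.42) fell. Of 24 p53 targets 4 rose and 0 fell (Perp 0.47, Sulf2 0.22, Sesn2 0.21 and Gadd45a 0.65), while Cdkn1a, a p53 target that is among the 43, fell.

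Summed markers of cell types also differed between groups, and a sum can hide members that go opposite ways. Of 3 leukocyte markers tested, 2 were called higher and 1 lower at passage 7 than at passage 4 in both DOX states. Of 12 collecting duct markers tested, 5 were higher and 2 lower with DOX, and 6 and 2 without DOX. Beside these stood 18.3% and 15.8% of all tested genes with DOX, and 14.3% and 11.3% without DOX. The 7 leukocyte markers summed to 36.3 to 43.8 CPM at passage 7 with DOX, against 67.2 to 75.2 without DOX, and to 20.1 to 35.6 CPM at passage 4 with DOX, against 39.0 to 46.9 without DOX, with Adgre1, Lyz2, Cd3e and Cd79a under 1 CPM in all libraries. The 7 fibroblast markers summed to 3.68 to 6.61 CPM at passage 7 with DOX, against 2.49 to 3.72 without DOX, and to 1.21 to 1.88 CPM at passage 4 with DOX, against 0.80 to 1.26 without DOX, with Col1a2, Col3a1, Lum, Pdgfra and Pdgfrb under 1 CPM in all. Collecting duct markers summed to 5548 to 6152 CPM at passage 7 with DOX, against 6395 to 6869.7 without DOX, and to 4490.2 to 4617 CPM at passage 4 with DOX, against 5583 to 5734 without DOX. The 6 proximal tubule markers summed to 11.8 to 12.8 CPM at passage 7 with DOX, against 12.4 to 13.4 without DOX, and to 9.71 to 11.9 CPM at passage 4 with DOX, against 12.5 to 13.3 without DOX, with Slc34a1 and Slc22a6 under 1 CPM. With DOX, the 6 intercalated cell markers summed to 5.43 to 7.13 CPM at passage 7, against 13.4 to 29.2 at passage 4, and without DOX to 6.43 to 11.8 CPM at passage 7, against 16.3 to 25.3 at passage 4, and 5 of the 6 stayed under 1 CPM in every library. All 5 loop and distal tubule markers and all 5 endothelial markers did so in all 16 libraries. Their part in the changes above was not tested.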

How the data were processed

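RNA of 16 libraries was measured by poly(A) RNA-seq. Per the labels' protocols, strand-marking libraries of 2 reads of 75 bp per fragment were aligned to GRCm38.p6 with STAR 2.6.0c. The authors deposited raw counts per gene and TPM values per gene, each with 1 column per library. The counting tool, its annotation and its strand setting are not given in the sources used here. The deposited TPM served only for the check of headers (correlation over 15316 genes). Symbols and positions were matched by identifier to the GENCODE M21 annotation of GRCm38.

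Counts were filtered by filterByExpr, which left 15316 of 55536 genes, scaled by TMM and fitted together by edgeR 4.0.16 in R 4.3.3 (robust quasi-likelihood, 1 mean per group, 12 residual degrees of freedom, Benjamini-Hochberg adjustment, threshold 0.05). SE is the log2 fold change divided by the square root of F. The contrasts were DOX at each passage, their mean and difference, and passage with and without DOX. Depth ranged from 9937504 to 17188295 counts per library. The model was checked on simulated counts. DESeq2 1.42.0, other scaling, no filter, a replicate block, a replicate pair term, subsets of replicates and leaving out each library were tried.

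The members, lists and tests were chosen with earlier results of these data known. Values in every library are given for up to 3 genes per role with the smallest adjusted p, for all inhibitors, and for Gins2, which was added after its values were seen. Up to 4 genes per direction were named from each other list. The promoters printed were picked from these genes after the matches were seen.

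Deviations from the group mean correlated between libraries of the same replicate number (0.21 to 0.42), and the number was used as a block. Libraries of the other number of a pair (1 and 2, or 3 and 4) did so as well (0.21 to 0.45), and those of the other pair went the opposite way (-0.39 to -0.20). Replicates of a group differed by more than the sampling of reads, as chi-square per degree of freedom was never under 1.82. This value cannot tell whether libraries of a pair came from the same RNA or culture. Libraries of the same pair reached at most 4.37, whereas for libraries of different pairs the lowest value was 9.66 and the highest 17.5. Members of a pair were thus closer to each other than to the other pair. The main fit treated the 4 libraries of a group as independent, so its 12 residual degrees of freedom may be too many.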

Additional observations from a re-analysis of the deposited data

Results flagged for a closer look

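A search for a library far from the other 3 of its group covered 100 groups of 4 values and flagged 4, where chance flags about 5%. Rrm2 in replicate 1 of passage 4 without DOX was high at 68.3 CPM, and Ccnb1 in replicate 3 of passage 7 with DOX was low at 25.5 CPM. Cdkn2a in replicate 3 of passage 4 with DOX was high at 91.9 CPM, and Cdkn2a in replicate 4 of passage 4 without DOX was low at 73.8 CPM.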

How the results depend on the processing

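Of 65 changes called for any of the 43 over all contrasts, scaling by RLE, DESeq2 and the replicate pair term kept 65, the replicate block 63, replicates 1 and 2 alone 60, replicates 3 and 4 alone 56 and no low-count filter 53. With only the groups compared in the fit, 54 were kept and 3 lost. That fit was not run for the averaged DOX contrast or the difference. No direction turned under any alternative. The block ended the 2 Mcm3 calls for passage and no other of these calls. Counts of the 43 called moved by more than 1.5 times as follows. With the replicate block, DOX at passage 4 gave 6 lower (2 without it), DOX averaged over passages 10 lower (4), the difference of DOX responses 1 higher (0), and passage without DOX 28 higher (17) and 1 lower (0). In the same order, this fit called 14.0%, 21.7%, 1.87%, 19.6% and 17.4% of all tested genes. The pair term gave 6 lower at passage 4, 7 higher (4) and 10 lower averaged, 1 higher for the difference, and 31 higher and 1 lower for passage without DOX. Its shares of all tested genes were 14.5%, 20.7%, 22.1%, 2.21%, 20.1% and 18.1%. Replicates 1 and 2 alone gave 12 lower at passage 4, 8 lower at passage 7 (3), 15 lower averaged and 34 higher for passage without DOX. Beside these stood 10.4%, 10.5%, 15.2% and 16.6% of the genes tested in that fit. Replicates 3 and 4 alone gave 8 higher at passage 4 (3), 17 higher (3) and 1 lower at passage 7, 16 higher averaged, 2 higher and 1 lower for the difference (0 and 0), and 2 lower for passage without DOX. In the same order, that fit called 11.4%, 14.3%, 15.7%, 19%, 1.2%, 2.08% and 14.4% of its tested genes. The lower calls at passage 7 (2.33% of the 43) and for passage (4.65%) were thus below the share of all genes. That for the difference (2.33%) was near it. The cause of these shifts in counts was not tested. Leaving out 1 library gave 2 to 4 higher and 0 to 2 lower for DOX at passage 4, with 0 lower in the absence of replicate 1 of passage 4 without DOX. It gave 2 to 4 higher and 2 to 3 lower at passage 7, and 4 to 7 higher and 3 to 5 lower averaged, with 7 higher in the absence of replicate 3 of passage 4 without DOX. It gave 20 to 29 higher and 2 to 3 lower for passage with DOX, and 13 to 25 higher and 0 to 1 lower without DOX, with 1 lower in the absence of replicate 1 of either passage without DOX. The share of all tested genes was not counted for the fits that left out 1 library. The test of the DOX response between replicate pairs was chosen after seeing the data. The lowest count of any of the 43 in a library was 37, for Cdkn1c.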
